A study of Mus musculus with 5 samples.

Results

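The binding of TLX in mouse neural stem cells (NSC) was compared with that in mouse brain tumour stem cells (BTSC). TLX is a transcription factor encoded by Nr2e1. The members are the 7458 TLX peaks listed for NSC and the 1436 listed for BTSC, together 8894 of the 71757 peaks in the 4 peak lists of the study. The rest of those peaks mark H3K27ac, the acetylation of histone H3 at lysine 27 found at active promoters and enhancers. A peak was called shared when it overlapped a peak of the other list by 1 bp or more, and otherwise NSC-only or BTSC-only. Chromosomes 1 and 6 are reported apart, because H3K27ac peak numbers differ between the cultures there as well.

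In both TLX samples the cells carried a retroviral TLX with 3 copies of the TY1 epitope (TLX-3xTY1), and a TY1 antibody was used for the pull-down. The peaks therefore show where tagged, added TLX was found, and not TLX made from the cells' own gene alone. The H3K27ac samples came from NSC and BTSC that had not been transduced. A control from cells with an empty vector (MSCV-neo) was processed without antibody and its cell type is given only as cell cultures. Its peaks, if any, were not analysed here. No TY1 pull-down from cells lacking the tag was used here, and so TLX binding and any other signal of the antibody cannot be told apart. The labels do not give the mouse strain, the tumour model or the age of the animals, and their growth text describes primary neural stem cells selected with the drug they spell G-481 for every sample. Each group is 1 library, so nothing below has a replicate check, and 95% intervals cover counting error only.

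TLX belongs to the orphan nuclear receptors, which have no established natural ligand and bind DNA through zinc fingers. It recruits histone deacetylases and the demethylase LSD1 (Kdm1a) to repress genes, and it keeps neural stem cells of the adult forebrain dividing and undifferentiated. As a monomer it recognises the letters AAGTCA, often preceded by a further A, which differ from the AGGTCA bound by many other nuclear receptors.

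The letters AAAGTCA were found in 10.0% of promoters with a TLX peak in both lists (22 of 219, 95% interval 6.40 to 14.8) on chromosomes other than 1 and 6. They were found in 3.88% of promoters with an NSC peak and no BTSC peak (75 of 1933, 3.06 to 4.84) and in 4.87% of all 28972 promoters there. These shares count start sites, and a gene can have several, so neighbouring windows share bases. A promoter here is the window from 250 bases before to 50 after a start site. It counts as having a peak when the peak overlaps it by 1 bp or more, and it was searched on both strands. Sequences are from RefSeq for GRCm38.p6, the assembly of mm10. Promoters with peaks in both lists hold 17 distinct AAAGTCA sites on these chromosomes, and 21 with chromosomes 1 and 6 included. Of these, 10 lie within 100 bp of the summit in both libraries, and none of the 10 is on chromosome 1 or 6. Those 10 are printed because they sit where the libraries agree on the summit; they were chosen after their values were seen. Each is given 5′ to 3′ on the strand that reads AAAGTCA, with that motif in capitals.

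Psmf1 (chr2:151741319-151741345, minus strand): gagcacgcacAAAGTCAacaagtattt
Psmb3 (chr11:97703256-97703282, minus strand): cggaaagtgaAAAGTCActgtgagtgc
Ccnk (chr12:108179733-108179759, minus strand): gggggcggcgAAAGTCAggtgcctgtc
Timm13 (chr10:80901084-80901110, minus strand): cagggcgtcaAAAGTCAgtgggctcac
Rbms2 (chr10:128176661-128176687, plus strand): aagttaacccAAAGTCAgaacgagcca
Med7 (chr11:46436966-46436992, plus strand): gcgctgaggaAAAGTCActaccggaaa
Rnf4 (chr5:34336131-34336157, plus strand): agccaaacgaAAAGTCAaacacccagc
Nol12 (chr15:78934941-78934967, plus strand): gaagtgttttAAAGTCAgaagcggcca
Rps6 (chr4:86857423-86857449, minus strand): acgcccctctAAAGTCActtccgccgg
Lpp (chr16:24393369-24393395, plus strand): gcgtgcaggcAAAGTCAggaattcagg

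The TLX site with the highest fold in both cultures is the first of these. The Psmf1 motif lay 11 bp from the NSC summit and 3 bp from the BTSC summit. Psmf1 encodes a proteasome inhibitor. The NSC summit lay before a listed start site of this gene but inside its annotated span. The summit pileup, which is the number of fragments stacked at the summit, was solved from the deposited fold and p-value; it was 377 in NSC and 229 in BTSC. The promoter of Psmb3, which encodes a subunit of the proteasome, had pileups of 89 and 40. The promoter of Ccnk, encoding cyclin K, had 75 and 50. Both have the motif within 24 bp of both summits. At the weak end of the set is Lpp, encoding a protein of cell adhesion sites, with a pileup of 24 in either library.

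The share with the motif was higher for taller peaks in both classes. Among promoters whose NSC pileup was 40 or more, AAAGTCA was in 14.6% with peaks in both lists (13 of 89, 8.01 to 23.7) and in 12.7% with an NSC peak alone (7 of 55, 5.27 to 24.5). Below a pileup of 30 the motif was in 4 of 80 and in 53 of 1637 (3.24%), and at 30 to 39 in 5 of 50 and in 15 of 241 (6.22%). The share with both peaks was the higher in each of the 3 classes of pileup, with overlapping intervals. Of 33 promoters with a BTSC peak alone, 3 held the motif (9.09%, 1.92 to 24.3). The shorter AAGTCA, which includes every AAAGTCA, was in 19.2% of promoters with both peaks, 12.8% with an NSC peak alone and 18.2% with a BTSC peak alone, and in 4345 of all 28972.

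Promoters of 4 named genes show the range of sequence under such peaks, 250 bases before the start site each, with AAGTCA or its complement TGACTT in capitals. Spred1, an inhibitor of Ras signalling, and Smyd5, a methyltransferase family gene on chromosome 6, are shared. Fabp7, a fatty acid binding protein of radial glia, and Cdk1, the kinase that drives entry into mitosis, are NSC-only.

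Spred1 (chr2:117120821-117121070, plus strand): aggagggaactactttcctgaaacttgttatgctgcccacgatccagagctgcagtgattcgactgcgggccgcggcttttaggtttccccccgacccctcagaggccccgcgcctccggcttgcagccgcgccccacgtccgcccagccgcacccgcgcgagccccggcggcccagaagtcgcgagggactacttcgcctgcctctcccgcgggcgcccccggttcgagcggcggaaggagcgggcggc
Smyd5 (chr6:85431726-85431975, plus strand): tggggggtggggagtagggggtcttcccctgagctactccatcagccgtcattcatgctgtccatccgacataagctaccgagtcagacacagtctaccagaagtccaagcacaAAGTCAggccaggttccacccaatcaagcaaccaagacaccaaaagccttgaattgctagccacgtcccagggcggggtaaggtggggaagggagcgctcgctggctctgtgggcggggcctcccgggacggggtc
Fabp7 (chr10:57784673-57784922, plus strand): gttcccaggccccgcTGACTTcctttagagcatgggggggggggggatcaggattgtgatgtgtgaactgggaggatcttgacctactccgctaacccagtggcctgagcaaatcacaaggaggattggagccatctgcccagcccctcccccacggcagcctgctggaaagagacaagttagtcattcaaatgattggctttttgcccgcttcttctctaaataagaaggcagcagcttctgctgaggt
Cdk1 (chr10:69352913-69353162, minus strand): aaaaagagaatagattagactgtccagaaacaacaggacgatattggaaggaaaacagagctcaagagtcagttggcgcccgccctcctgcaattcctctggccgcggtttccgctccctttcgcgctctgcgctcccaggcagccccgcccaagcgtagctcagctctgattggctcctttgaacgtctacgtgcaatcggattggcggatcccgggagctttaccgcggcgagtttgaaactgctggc

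Fabp7 had an NSC pileup of 33 and Smyd5 pileups of 38 in NSC and 42 in BTSC; each of these promoters holds 1 match. Spred1 (51 and 25) and Cdk1 (22 in NSC) hold none in these windows. The 4 were chosen after their sequences were seen, so how many of them hold the letters says nothing of the classes.

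The main contrast between the cultures is the number of sites. On chromosomes other than 1 and 6, NSC had 6228 TLX peaks and BTSC 1064, a ratio of 5.85 (5.48 to 6.25). The H3K27ac lists had 27304 and 27326 peaks there, a ratio of 0.999. The TLX ratio ran from 4.48 on chromosome 16 to 7.67 on chromosome 12 over the 17 other autosomes, with a median of 5.86. The X chromosome had 40 TLX peaks in NSC and 4 in BTSC.

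Most BTSC sites overlapped an NSC site, whereas most NSC sites had no BTSC peak. Of the 1064 BTSC peaks on these chromosomes, 907 overlapped an NSC peak (85.2%, 83.0 to 87.3), which left 157 BTSC-only. On the NSC side, 909 of 6228 were shared (14.6%, 13.7 to 15.5) and 5319 were NSC-only. With the NSC list cut to as many peaks as the BTSC list has, by q, 49.3% of BTSC peaks overlapped an NSC peak and the ratio of peak numbers was 1.12. The overlap of most BTSC sites with NSC sites thus holds for the full lists and depends on the length of the NSC list.

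Chromosomes 1 and 6 went opposite ways. Chromosome 1 had 461 peaks in NSC and 297 in BTSC, a ratio of 1.55 (1.34 to 1.80), and 20.7% of the whole BTSC list against 6.18% of the NSC list. Chromosome 6 had 769 and 75 peaks, a ratio of 10.3 (8.08 to 13.2). H3K27ac peak numbers moved in the same directions, with ratios of 0.738 (0.696 to 0.783) on chromosome 1 and 1.24 (1.16 to 1.33) on chromosome 6, outside the 0.957 to 1.07 of the other autosomes. Of the BTSC peaks, 65.7% on chromosome 1 and 96.0% on chromosome 6 (72 of 75) overlapped an NSC peak. Whether the number of copies of these chromosomes differs between the cultures was not tested.

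**Figure D1:**
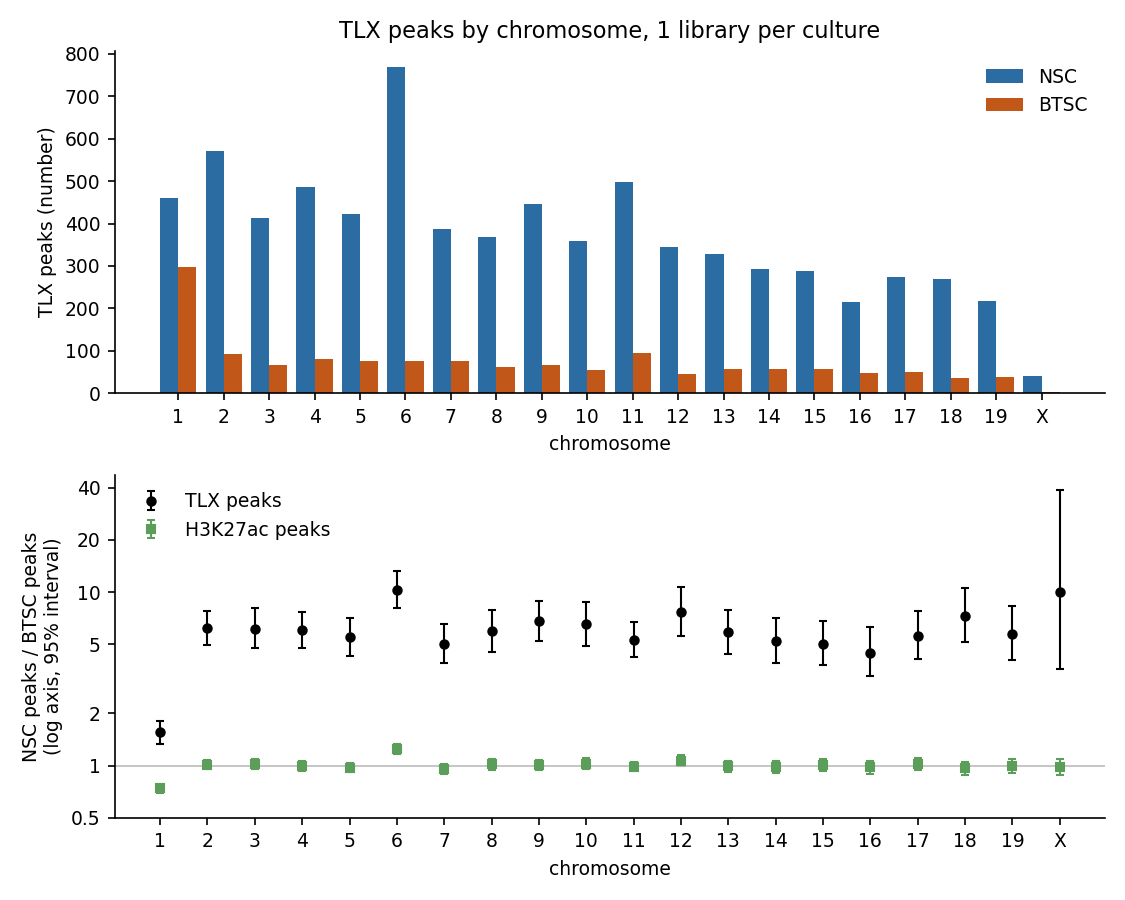
TLX peaks per chromosome in NSC and BTSC (bars, top) and the ratio of NSC to BTSC peak numbers for TLX and H3K27ac (points, bottom, log axis, with 95% counting intervals). The TLX ratio is 1.55 on chromosome 1 and 10.3 on chromosome 6, and between 4.48 and 7.67 on the other autosomes.

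Sequencing depth is not given, and a measure of it was taken from the peaks. The genome-wide background implied by fold and p was 4.23 fragments in NSC and 3.37 in BTSC, a ratio of 0.797. The weakest peaks had pileups of 15 in NSC and 14 in BTSC, and the medians were 25 and 23. If NSC-only pileups on chromosomes other than 1 and 6 are multiplied by 0.797, 257 of 5319 (4.83%) fall under the lowest BTSC pileup. This rests on 1 scaling and on the lowest pileup of 1 library. With 1 library a side, depth, the yield of the precipitation and TLX binding cannot be told apart.

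The higher an NSC peak, the more often it was found in BTSC. On chromosomes other than 1 and 6, 1.18% of NSC peaks with a pileup under 20 overlapped a BTSC peak (10 of 846), and 6.96% with 20 to 29 (241 of 3462). The share was 22.8% at 30 to 39, 45.8% at 40 to 59 and 81.3% at 60 and over (126 of 155, 74.2 to 87.1). Chromosome 1 peaks were found more often at each height below 60, with 34.5% (28.7 to 40.7) at 20 to 29 and 79.5% (63.5 to 90.7) at 40 to 59. Chromosome 6 peaks were found less often, with 1.69% (0.684 to 3.46) and 33.3% (23.6 to 44.3). At 60 and over the 3 groups came together at 81.3%, 85.7% and 80.8%, with overlapping intervals. The median local background of NSC peaks was 4.62 on chromosome 1, for shared and NSC-only alike, and 4.23 on the others. An equal pileup was thus often a lower fold on chromosome 1.

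**Figure D2:**
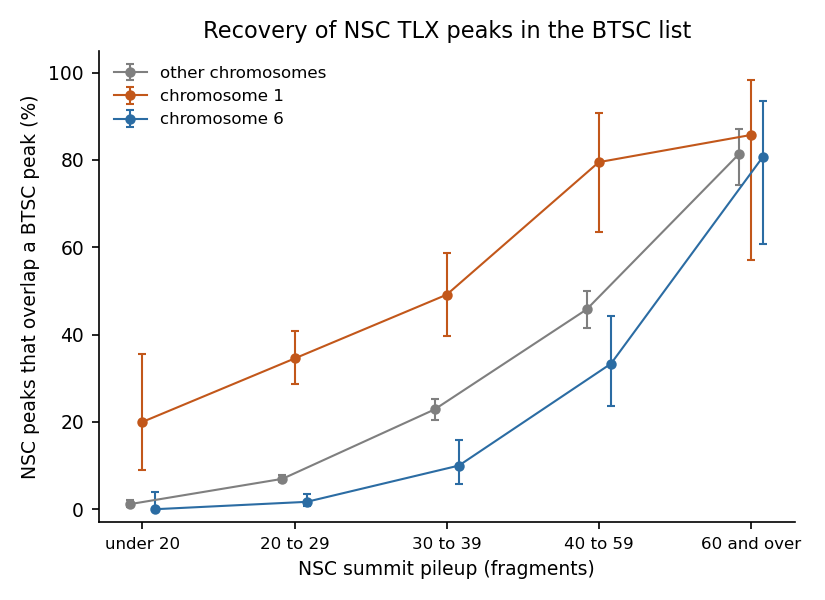
Share of NSC TLX peaks that overlap a BTSC TLX peak (y axis, %) by NSC summit pileup (x axis, fragments), for chromosome 1, chromosome 6 and the others, with 95% counting intervals. The share rises with pileup in each group, from 1.18% to 81.3% on the other chromosomes.

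Shared sites were lower in BTSC relative to background on most chromosomes. Over 906 one-to-one pairs on chromosomes other than 1 and 6, the median pileup was 36 in NSC and 23 in BTSC. Divided by the background ratio of 0.797, the median BTSC-to-NSC ratio was 0.802, and 24.1% of the 904 pairs with solved pileups lay above 1. It was 1.05 over 192 pairs on chromosome 1 and 0.628 over 72 pairs on chromosome 6, while the other chromosomes ran from 0.663 (chromosome 18) to 0.897 (chromosome 16). The summits of a pair on these other chromosomes lay a median of 72 bp apart, and 84.9% lay within 200 bp. The 2 folds of a pair had a Spearman correlation of 0.579 across the 906 pairs, which share libraries and are not independent. A pair had to pass the caller in both libraries, so sites that were weak in BTSC are missing from these medians.

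**Figure D3:**
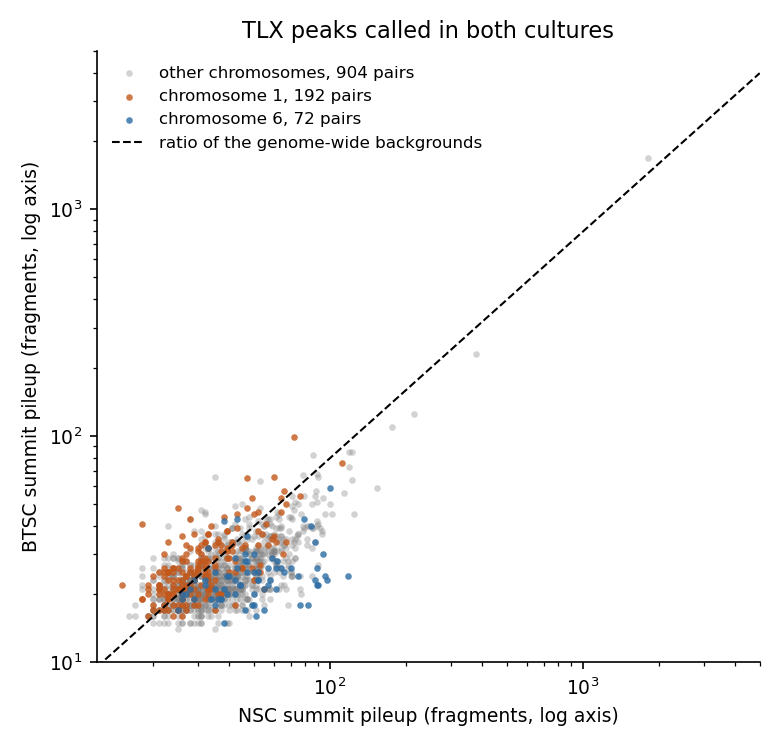
Summit pileup of shared TLX peaks in NSC (x axis) and BTSC (y axis), both in fragments on log axes, 1 point per one-to-one pair, with a dashed line at the ratio of the genome-wide backgrounds. Chromosome 6 pairs lie mostly below the line (median scaled ratio 0.628) and chromosome 1 pairs around it (1.05).

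Psmf1 and Thsd4 led the shared sites of both cultures, while other leading sites differed in rank. On chromosomes other than 1 and 6, Psmf1 ranked first among shared pairs in either list, with folds over background of 72.3 and 52.6 (chr2:151740819-151741923 in NSC). The next was a peak inside Thsd4, a gene of the extracellular matrix, with pileups of 176 and 109. A peak inside Sparcl1, which encodes a secreted glycoprotein of astrocytes, had 122 and 85. One inside Serinc5, a membrane protein gene, had 119 and 85. The scaled ratios of these 4 lay between 0.763 and 0.897. Other leading pairs fell back in BTSC: a peak inside Rab31, a small GTPase gene, had 122 and 64 (scaled ratio 0.659), and one 366632 bp from Tcf4, a transcription factor gene, had 114 and 56 (0.617).

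Some shared sites had scaled ratios well away from the median of 0.802 over pairs on chromosomes other than 1 and 6. A peak 33227 bp from Pou3f1, a transcription factor of neural progenitors, had pileups of 68 in NSC and 18 in BTSC (scaled ratio 0.332, 0.186 to 0.565). A peak 1091 bp from Lrrc9 had 77 and 20, and a peak 75432 bp from Tnfsf11, the gene of the cytokine RANKL, had 153 and 59. In the other direction a peak 69759 bp from Septin7, a cytoskeletal GTPase, had 23 in NSC and 40 in BTSC (scaled ratio 2.18, 1.28 to 3.82). A peak inside Ahdc1, which encodes a DNA-binding protein, had 32 and 46 (1.80, 1.12 to 2.93). Most of the 10 pairs picked in this direction had intervals that included 1. Examples are those of Fam43a (1.82, 0.995 to 3.39) and Tspan5 (1.65, 0.918 to 3.02). Apart from Tnfsf11, which was named among the leading pairs, these were picked for the largest difference in rank, so the intervals describe counting error and are not tests.

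Some of the strongest NSC peaks had no BTSC peak. The highest by q was inside Nav2, a neuron navigator gene (chr7:49261880-49262758), with a pileup of 95 and the nearest BTSC peak 98805 bp away. A peak 26215 bp from Ntn4, a secreted netrin, had 89, and one near Zswim6 had 83. Further such peaks lay inside Lima1, an actin binding protein gene (76), and inside Hivep3, a zinc finger gene (74), whose H3K27ac was listed for NSC alone. Multiplied by the background ratio of 0.797, these pileups are 75.7 to 58.9, and the lowest BTSC pileup is 14. This scaling takes no account of the yield of the precipitation. Why no BTSC peak was called at these sites was not tested. A peak 3542 bp from Olig1, a transcription factor of the oligodendrocyte lineage, had 68 in NSC, while the nearest BTSC peak lay 2485 bp away. That BTSC peak, 6833 bp from Olig1 with a pileup of 45, overlapped another NSC peak.

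NSC-only peaks also came in runs. When peaks within 50 kb were chained, 9 NSC-only peaks lay over 148169 bp at Wnt7b, a Wnt ligand, with pileups of 19 to 51, and 1 BTSC peak. Another 9 lay at Chst3, Psap and Cdh23, with pileups of 17 to 23 and no BTSC peak. A run of 8 lay at Hdgf, Mrpl24, Rrnad1, Isg20l2, Crabp2, Nes and Bcan, with pileups of 20 to 46 and no BTSC peak. Nes and Bcan are the genes of the neural stem cell filament nestin and of a brain proteoglycan. A run of 8 lay at Ckb, Trmt61a, Bag5 and Coa8, and another of 8 at Septin9. On chromosome 6 the runs reached 11 peaks at Dennd2a and 9 at Wnt7a, another Wnt ligand, and 9 at Ptn, a growth factor of neural progenitors, where 2 BTSC peaks were listed.

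BTSC-only peaks were few. On chromosomes other than 1 and 6 their median pileup was 21. It was 23 for shared peaks in BTSC and 24 for NSC-only peaks in NSC. Within 10 kb of an NSC peak lay 17.2% of these BTSC-only peaks (27 of 157, 11.6 to 24.0). Peaks near Slc13a5, a citrate transporter gene, and Slc39a11, a zinc transporter gene, had pileups of 37 and 36 at the genome-wide background, with NSC peaks 7366 and 3287 bp away. Peaks farther from any NSC peak were those near Gfra2, a receptor of GDNF-family ligands (34), and inside Baiap2 (33), Gria1, a glutamate receptor gene (29), and Slc1a2, a glutamate transporter gene (29). The highest by q, inside Filip1l, had a pileup of 96 on a local background of 21.3. On chromosome 1 there were 102 BTSC-only peaks, led by a peak 119008 bp from Fhl2 with a pileup of 42. Chromosome 6 had 3, near Nxph1, inside Mgll and inside Iqsec1.

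The longest BTSC-only run lay over the gene of TLX itself. From Snx3 to the far side of Nr2e1 (chr10:42501759-42592640) the BTSC list had 6 peaks with pileups of 31, 37, 38, 42, 50 and 59, and the NSC list had none. Their folds were 2.86 to 5.73, on a local background of 7.71 to 12.3 fragments against 3.37 genome-wide. H3K27ac was listed there in both cultures, with 4 peaks in NSC and 9 in BTSC within 100 kb of Nr2e1. The BTSC ones that overlapped no NSC one were weak, with folds of 1.86 to 2.59 and −log10 q of 1.33 to 4.71. The H3K27ac peak at the Snx3 end had a fold of 10.6 in NSC and 34.4 in BTSC. What raised the background at this gene was not tested. Both TLX samples carried the construct that encodes TLX, and whether it contributed to the signal here was not tested.

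In the full lists, BTSC-only and shared sites lay near gene ends less often than NSC-only sites, an order that depends on the length of the NSC list. Within 1 kb of either end of a protein-coding gene lay 21.1% of shared NSC peaks (18.5 to 23.9), 33.1% of NSC-only peaks (31.8 to 34.4) and 19.7% of BTSC-only peaks (13.8 to 26.8), on chromosomes other than 1 and 6. Split by height, NSC peaks at gene ends overlapped a BTSC peak in 0.255% below a pileup of 20 (1 of 392), against 2.74% inside genes (8 of 292) and 0.617% between genes (1 of 162). At 20 to 29 the shares were 6.62%, 7.13% and 7.20%, and at 30 to 39 they were 24.1%, 22.1% and 23.2%. At 40 to 59 they were 53.7%, 46.9% and 42.4%, with overlapping intervals. With the NSC list cut to the length of the BTSC list, the order turned, with 15.8% of shared, 12.9% of NSC-only and 25.8% of BTSC-only peaks at gene ends.

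Most TLX peaks of every class lay in H3K27ac of both cultures. In the full lists, H3K27ac of 1 culture alone was more often that of the culture with the TLX peak. H3K27ac of both lists met 88.1% of shared NSC peaks, 85.9% of NSC-only peaks and 72.6% of BTSC-only peaks, on chromosomes other than 1 and 6. H3K27ac of BTSC alone met 16.6% of BTSC-only peaks (26 of 157, 11.1 to 23.3), 5.28% of shared NSC peaks and 1.75% of NSC-only peaks. H3K27ac of NSC alone met 6.32% of NSC-only peaks (336 of 5319) and 0.770% of shared NSC peaks. With summits within 200 bp as the rule for shared, the BTSC-only share was 9.52%.

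The split by H3K27ac was also seen at equal height. Among NSC peaks with a pileup of 30 to 39, a BTSC TLX peak was found at 40.5% of those in H3K27ac of BTSC alone (15 of 37, 24.8 to 57.9). It was found at 24.7% of those with H3K27ac in both (247 of 1001), 11.6% with neither (13 of 112) and 1.72% with H3K27ac of NSC alone (1 of 58, 0.0436 to 9.24). At 40 to 59 the shares were 54.2%, 49.7%, 34.5% and 6.25%. NSC TLX sites acetylated in NSC alone were thus the least often found in BTSC in both classes.

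**Figure D4:**
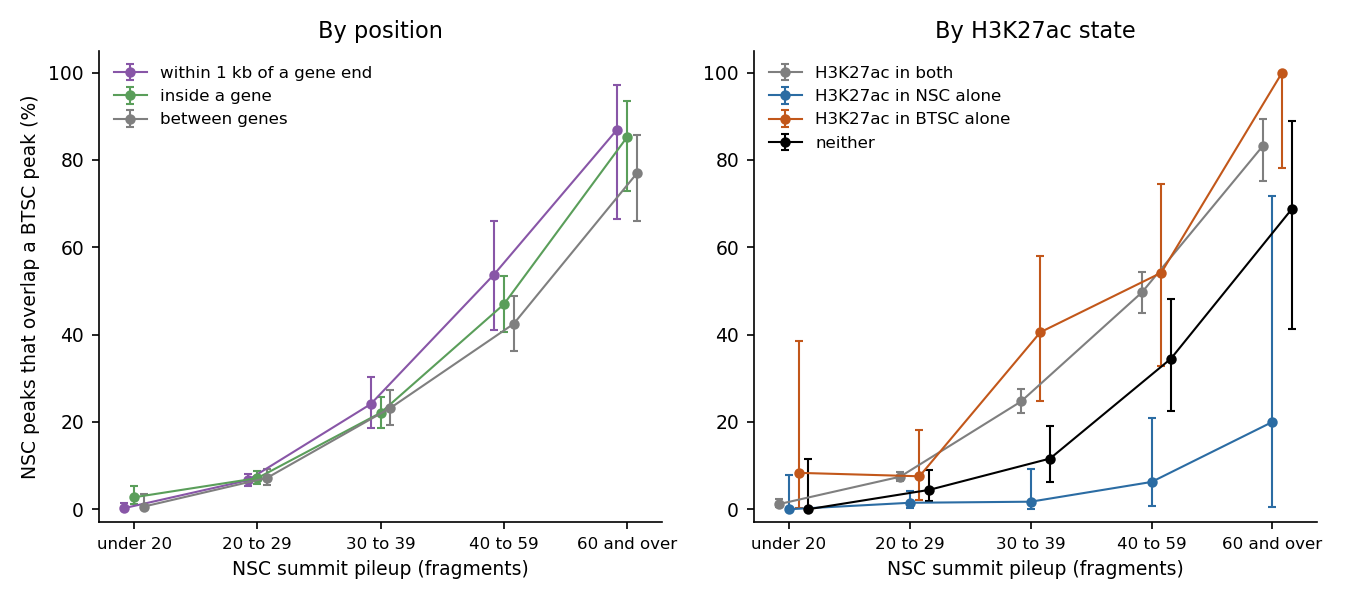
Share of NSC TLX peaks on chromosomes other than 1 and 6 that overlap a BTSC TLX peak (y axis, %) by NSC summit pileup (x axis, fragments), split by position to genes (left) and by H3K27ac lists that overlap the peak (right), with 95% counting intervals. The intervals by position overlap from a pileup of 20 upward, and the line for H3K27ac of NSC alone stays lowest from a pileup of 20 upward.

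At the level of genes, most with a BTSC peak also had an NSC peak in the full lists. Of 19566 protein-coding genes on chromosomes other than 1 and 6, 23.6% had an NSC TLX peak in the gene or within 10 kb (4608 genes) and 4.34% a BTSC peak (849 genes). Both lists had a peak at 767 genes (3.92%), the NSC list alone at 3841 (19.6%) and the BTSC list alone at 82 (0.419%). With the NSC list cut to the length of the BTSC list, 425 genes had both and 424 a BTSC peak alone. The shares were 28.7% and 17.5% on chromosome 1 and 42.3% and 5.33% on chromosome 6, where no gene had a BTSC peak alone (0.0%). On chromosome 1, 33 genes (2.74%) did. Both lists had a peak at 14.8% of chromosome 1 genes, and the NSC list alone at 13.9% there and 36.9% on chromosome 6. Nfia, a transcription factor of glial development, had 15 NSC peaks, the most of any gene, and 2 BTSC peaks.

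The gene lists below are set against these shares of all genes, and no list was tested. Many genes of neural stem cells had TLX in both cultures. Of 18 such genes, all off chromosomes 1 and 6, 15 had an NSC peak, 9 a BTSC peak and 8 both. Nr2e1 had BTSC peaks alone, on the raised background given above. At Hes1, the Notch-driven repressor that keeps progenitors undifferentiated, the highest peak had pileups of 93 in NSC and 37 in BTSC. At Gfap, the filament gene of astrocytes and adult neural stem cells, the pileups of 36 and 31 were nearer each other. Egfr, a growth factor receptor, had 50 and 20, and Slc1a3, a glutamate transporter of radial glia, 46 and 32. Nes, Vim, Sox9, Pax6, Fabp7, Msi1 and Hes5 had NSC peaks alone, and the highest of these peaks had pileups of 18 (Sox9) to 33 (Fabp7).

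Genes reported elsewhere as TLX targets followed the same order. Of 13 off chromosomes 1 and 6, 8 had an NSC peak and 5 a BTSC peak, among them Gfap, Mir9-2 and Hes1. At Mir9-2, a gene of miR-9, a microRNA that represses TLX, the pileups were 43 in NSC and 24 in BTSC. Ccnd1, Plce1 and Hif1a had NSC peaks alone. Cdkn1a, the cell cycle inhibitor p21, and Sirt1 had none in either list.

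Of 21 corepressor and nuclear receptor genes, 19 had an NSC peak and 7 a BTSC peak (90.5% and 33.3%). The shares of all genes were 23.6% and 4.34%, so more genes with an NSC peak is not particular to this list. Nr2e1 is among the 7 and had no NSC peak. Rcor1, encoding the LSD1 partner CoREST, had pileups of 34 and 18, the histone deacetylase gene Hdac1 had 45 and 18, and Rxra, the common partner of nuclear receptors, 27 and 25. Kdm1a, Hdac2, Hdac5 and Ncor1 had NSC peaks alone. Thra had 1 peak in each list, but the 2 peaks did not overlap. Hdac3 had none.

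Among SOX, POU and NFI factors 15 of 17 had an NSC peak and 7 a BTSC peak. Sox21 had pileups of 47 and 24, Nfib 58 and 36, and Sox6 45 and 21. Sox1 had pileups of 20 and 21, but on a raised local background of 6.35 in NSC, so that its fold was 2.86 in NSC and 5.04 in BTSC. Sox4, Sox11, Pou3f2 and Nfic had NSC peaks alone. Of 19 forebrain patterning genes, 12 had an NSC peak and 3 a BTSC peak, among them Zic2, with pileups of 24 and 19, and Dmrta2, whose peaks in the 2 lists did not overlap.

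In the Notch pathway 10 of 21 genes had an NSC peak and 7 a BTSC peak. Of the receptors, Notch2 had 4 and 3 peaks, and its highest BTSC peak (pileup 26) overlapped no NSC peak. The ligand gene Jag1 had pileups of 36 and 27, and the glycosyltransferase gene Lfng 32 and 17. Heyl, a target of the pathway, had a peak in BTSC alone, with a pileup of 27. Notch3, Hes5, Hey1 and Nrarp had NSC peaks alone, and the ligands Dll1, Dll3 and Dll4 had none. On chromosome 1 Hes6 had pileups of 33 and 28.

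In the Wnt pathway the counts were 12 of 20 genes in NSC and 4 in BTSC. The ligand gene Wnt5a had pileups of 25 and 14, the feedback inhibitor Axin2 36 and 15, and Apc, of the destruction complex, 49 and 22. The receptor genes Fzd1, Fzd2, Fzd3, Fzd8 and Fzd9 had NSC peaks alone, with pileups of 23 to 36. Wnt8b had a peak in BTSC alone (26), with H3K27ac counted at the gene for BTSC and not NSC. On chromosome 6 the repressor gene Tcf7l1 had 84 and 40.

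Hedgehog genes had an NSC peak at 6 of 10 and a BTSC peak at 2. Gli3, a transcription factor of the pathway, had pileups of 81 and 33. The receptor gene Ptch1, with 5 NSC peaks, and the inhibitor gene Sufu, with a pileup of 51, had none in BTSC. In the BMP and TGF-beta pathway, which drives glial fate, the counts were 11 and 2 of 21, with Id3 and Smad3 in both. Among receptor kinases and their feedback genes they were 14 and 5 of 22: Egfr, Igf1r, Ntrk2 and Spred1 were in both, Fgfr1, Fgfr2 and the Sprouty genes Spry1, Spry2 and Spry4 in NSC alone. Fgf2, a mitogen of neural stem cells, had a peak in BTSC alone, with a pileup of 19.

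Of 16 cell cycle genes, 7 had an NSC peak: Ccnd1, Ccnd3, Cdk6, Cdk1, E2f3, Myc and Pcna. None had a BTSC peak, which in a list of this size is near the 4.34% of all genes. Their pileups were 17 to 33. Of all NSC peaks on these chromosomes, 1.18% under 20, 6.96% at 20 to 29 and 22.8% at 30 to 39 overlapped a BTSC peak. Whether height bears on this list was not tested. Of 18 tumour suppressor genes, 9 had an NSC peak and 4 a BTSC peak. Tsc1, an inhibitor of mTOR signalling, had 44 and 25, and Nf1, an inhibitor of Ras, 24 and 17. Rb1 had an NSC peak alone (32). Of 16 genes of mesenchymal glioblastoma, 9 had an NSC peak, while Cebpd (26 and 17) was the 1 gene with a BTSC peak.

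Lists of differentiated and other cells ranged widely. Astrocyte genes had an NSC peak at 6 of 13 and a BTSC peak at 4, led by Sparcl1, and oligodendrocyte lineage genes at 7 and 2 of 15, the BTSC ones being Olig1 and Olig2. Neuron genes had 3 and 0 of 17. Microglia and endothelium had 1 and 0 of 11 each, Aif1 and Pecam1. Genes of other tissues and Hox genes off chromosomes 1 and 6 had none in either. Housekeeping genes had 5 and 1 of 11. On chromosome 6, 9 Hoxa genes had NSC peaks within 10 kb and none a BTSC peak, but neighbours there share peaks.

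**Figure D5:**
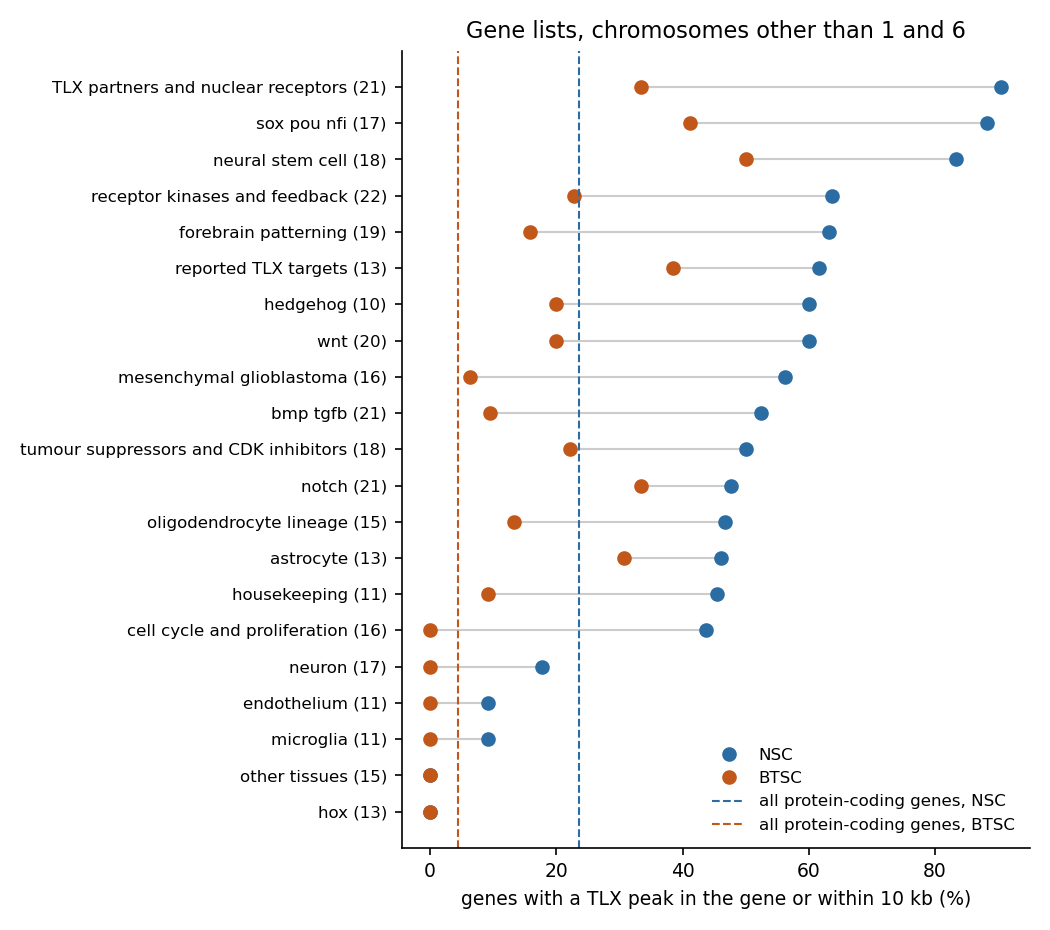
Share of each gene list with a TLX peak in the gene or within 10 kb (x axis, %) in NSC and BTSC on chromosomes other than 1 and 6, with the number of genes in brackets and dashed lines for all protein-coding genes (23.6% in NSC, 4.34% in BTSC). The NSC point lies right of the BTSC point wherever a list has any peak, and neuron, endothelium, microglia, other tissues and Hox genes lie left of the NSC line in NSC and at 0 in BTSC.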

How the data were processed

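TLX and H3K27ac were profiled by chromatin immunoprecipitation with sequencing in cultured mouse cells, with 1 library per group and 5 samples in all. The tools named are Bowtie, ChIPseeker and bcl2fastq 2.17.1.14, and the build is mm10, per the submitters' processing notes. Which program called the peaks is not given in the sources used here. For each of the 4 libraries used, the authors deposited 1 peak list, with a score, a fold enrichment (a linear ratio over background) and the p-value and q-value as −log10 for each peak. These are the authors' values and were used to describe and rank peaks.

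Pileup and local background were solved from the deposited fold and p, taking fold as (pileup + 1)/(background + 1) and p as a Poisson tail. This gave whole pileups within a tolerance of 0.002 for 7456 of 7458 NSC and 1435 of 1436 BTSC peaks. Python 3.11.15, numpy 2.4.6, pandas 2.3.3, scipy 1.17.1 and matplotlib 3.10.9 were used, and the functions were first tested on simulated data. Read numbers are not given, so the depth is known only through the solved background. The 95% intervals are Clopper-Pearson for shares and conditional binomial, also exact, for ratios. No test between cultures was made.

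Genes came from RefSeq for GRCm38.p6 (21896 protein-coding genes), in a table without strand or exons, and promoters on chromosome 18 were not searched. All 382 entries of 21 gene lists matched. The members, gene lists and motifs were chosen with earlier results of these data known, and gene lists were not matched on gene length. Named peaks were, on chromosomes other than 1 and 6, the 15 of highest q in each 1-list class with a fold of at least 2, the 10 leading shared pairs, the 10 pairs per direction with the largest difference in fold rank and the 5 longest runs per list; on chromosomes 1 and 6 the 5 leading of each, and list members by class. A subset of these is named, and some list members are not reported here. Alternatives were a stricter q, reciprocal overlap, summit distance, lists of equal length, other gene windows and stricter H3K27ac peaks.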

Additional observations from a re-analysis of the deposited data

How the results depend on the processing

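Over 15 results, 107 alternatives were computed and 75 moved the value by less than its counting interval or, for gene numbers, 1.5 times. With the NSC list as long as the BTSC list, the share of BTSC peaks that overlapped an NSC peak was 49.3% (19.2% on chromosome 1, 80.0% on chromosome 6) and the share of NSC peaks 44.1% (71.8% and 36.4%). The ratio of peak numbers was then 1.12, genes with both lists numbered 425, with BTSC alone 424 and with NSC alone 447, peaks at gene ends made up 15.8% of shared and 12.9% of NSC-only, and H3K27ac of 1 culture alone met 7.24% of BTSC-only and 8.10% of NSC-only peaks. With a reciprocal overlap of 50% the BTSC shares were 70.8%, 57.6% and 54.7%, the NSC shares 12.1%, 37.1% and 5.33%, and the BTSC-only share in H3K27ac of BTSC alone 8.68%. With summits within 200 bp the BTSC shares were 72.4%, 53.9% and 85.3%, the NSC shares 12.4% and 34.7%, and that BTSC-only share 9.52%. A gene end window of 2.5 kb gave 27.5% of shared and 40.8% of NSC-only peaks, a −log10 q of at least 5 gave 30.4% of NSC-only peaks, and start sites of the promoter table, added after seeing the data, 35.2%. H3K27ac peaks with a −log10 q of at least 5 gave 8.95% of NSC-only peaks in H3K27ac of NSC alone. Leaving out peaks on a raised or unsolved local background, also added after seeing the data, moved none of the 15 results past these bounds. The cause of the other moves was not tested; lists of equal length drop the weaker NSC peaks by construction. No paired analysis was possible because each group has 1 library.

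A site absent from a list was not called there, which depth and enrichment can set. With 1 library a side no spread between cultures grown separately is known, and a difference between precipitations and one between cell types cannot be told apart. Untagged TLX was not profiled. Promoter sequences cover part of the peaks, and peaks away from promoters were not searched for motifs.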

Other observations

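Other motifs in promoters with TLX peaks were counted as values. The ETS core CCGGAAG was in 22.8% of promoters with peaks in both lists and 21.6% of NSC-only ones, against 9.03% of all promoters on chromosomes other than 1 and 6. CACGTG was in 3.20% (7 of 219, 1.29 to 6.47) and 9.62% (186 of 1933, 8.34 to 11.0), against 7.28% of all. The nuclear receptor letters AGGTCA were in 14.6% and 9.78%, against 16.3% of all. The CCAAT box was in 27.4% and 33.4%, against 37.5% of all. Of the 16 motifs counted, these 4 are given with AAGTCA and AAAGTCA in the report, and they were chosen after their values were seen. The median GC content was 62.7% in both lists, 64.3% in NSC-only and 53.0% in all promoters.

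A few TLX peaks had folds under 2 on very high backgrounds. The NSC list had 8 and the BTSC list 4. Of these, a pair at Lrrc4c on chromosome 2 and a pair by Alkbh8 rank among the 10 leading pairs by q although their folds are 1.22 to 1.60. A second peak near the start of chromosome 9, for which Alkbh8 was the nearest gene, had pileups of 1810 on a background of 1246 in NSC and of 1687 on 1024 in BTSC. Peaks by Esp38 on chromosome 17 had NSC backgrounds of 145 to 174. All are counted in the overlaps above.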
